A study of Mus musculus with 2 samples.

Results

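Granulocyte and monocyte lineage cells were picked out of the 2 droplet libraries by the transcripts of 6 genes. A kept barcode was a member when its UMIs of Elane, Ctsg, Prtn3, Ms4a3, Lyz2 and S100a8 summed to at least 10 and its UMIs of Cd3g, a chain of the CD3 complex of T cells, did not exceed 3. A UMI is a molecular identifier that counts 1 captured transcript once, and barcodes were kept if they held 1500 UMIs and 500 genes or more while mitochondrial transcripts made up no more than 10% of the UMIs. The rule found 138 members among 5888 kept barcodes, or 2.34% (95% exact binomial interval 1.97 to 2.76). FL001 held 72 members of 1788 kept barcodes (4.03%, 3.16 to 5.04) and FL002 held 66 of 4100 (1.61%, 1.25 to 2.04).

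Both libraries came from wild type CD1 mouse embryos at E13.5, whose fetal liver cells were depleted of TER-119+ cells, sorted as Sca-1+ cKit+ HSPCs and cultured in wells coated with DL4 at 10 μg/mL and VCAM-1 at 2.32 μg/mL, 1000 cells to a well. DL4 is a Notch ligand that drives progenitors towards the T lineage and VCAM-1 is an adhesion molecule. The labels give both libraries as the same condition and name neither the culture day nor the embryos behind each. The study's text describes cells captured right after sorting or after 4 or 7 days on the coated wells and then pooled, without saying which days are in which library, so day and library cannot be told apart. Levels and shares are given per library, some counts also over both libraries together, and no p-value is given. FL001 held 16320118 UMIs in all and FL002 held 22651783.

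Granulocytes and monocytes share a progenitor in fetal liver and bone marrow, in which the transcription factors PU.1 and the C/EBP family are active. Along the granulocyte path, promyelocytes fill primary (azurophil) granules with myeloperoxidase and the serine proteases elastase, cathepsin G and proteinase 3, and later stages fill secondary and tertiary granules with lactoferrin, cathelicidin and lipocalin. The monocyte path depends on IRF8 and on CSF1R, the receptor for macrophage colony-stimulating factor.

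The members were chosen by the counts of the gate genes, whose levels are therefore a description. In FL001 the sum of the 6 genes had a median of 30 UMIs and a range of 10 to 897, and in FL002 a median of 31 and a range of 10 to 568. It reached 100 UMIs in 22 members of FL001 and 14 of FL002. The barcodes just inside the threshold, with 10 to 12 UMIs, numbered 12 in FL001 and 10 in FL002 and had a median of 14 and 13 Mpo UMIs. Those just outside, with 8 to 9 UMIs, numbered 16 and 24 and had a median of 7.5 and 11.5 Mpo UMIs, and the median of Elane was 0 UMIs on both sides. No gap in the counts therefore separated members from the rest at the threshold, as the histogram of gate sums shows.

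**Figure D1:**
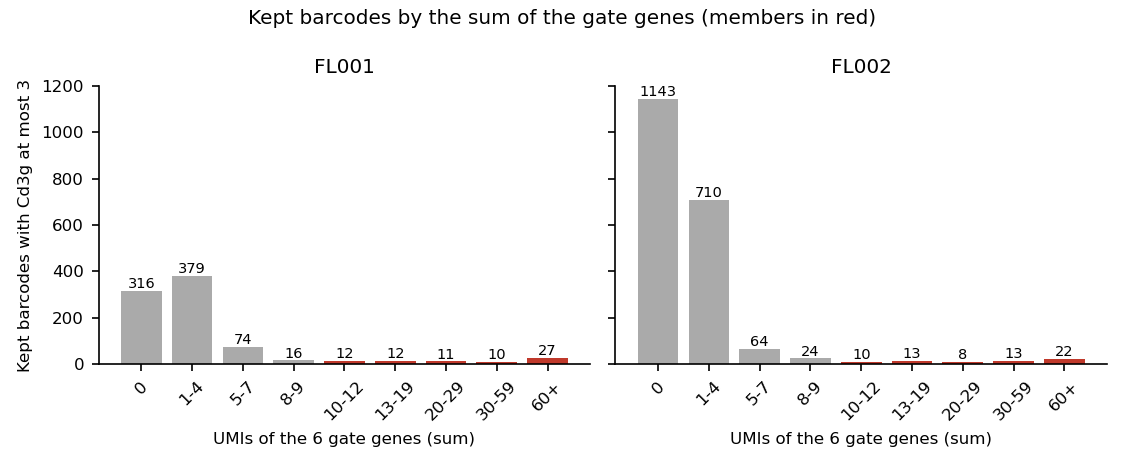
Number of kept barcodes with at most 3 Cd3g UMIs (vertical axis) in bins of the summed UMIs of the 6 gate genes (horizontal axis), for FL001 and FL002, with members in red and the counts above the bars. Bars fall towards the threshold of 10 without a gap, and 27 members of FL001 and 22 of FL002 lie at 60 UMIs or more.

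Prtn3, which encodes proteinase 3, was most often the leading gate gene. It was the one with the most UMIs in 96 of the 138 members, 48 in each library, against 21 members led by S100a8, 8 by Lyz2, 6 by Elane, 6 by Ctsg and 1 by Ms4a3. Prtn3 was found in 130 members, with a median of 17 UMIs and at most 90. Elane, the gene of neutrophil elastase, was at 0 UMIs in 83 members and reached 3 UMIs in 42, with at most 99. S100a8, which encodes a calcium-binding subunit of calprotectin, had the widest range, being found in 44 members and reaching 837 UMIs in one of them. Lyz2 was found in 107 members and Ctsg in 93, both with low medians of 2 and 2.5 UMIs. When Prtn3 was taken out of the sum, 71 of the 138 members still passed, which is 1.21% of the kept barcodes.

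Members were deeper than the other kept barcodes. A sum of raw UMIs is reached more easily by a deep barcode, and the part of this in the difference was not tested. The median was 11794 UMIs and 3376 genes against 7598.5 UMIs and 2634 genes in FL001, and 7929 UMIs and 2632.5 genes against 4729 UMIs and 1917 genes in FL002. Free RNA was read from barcodes with 1 to 100 UMIs. There the 6 gate genes together would supply 5.73 UMIs in FL001 and 2.08 in FL002 to a member of median depth if all its transcripts were free RNA. Gzma, the gene of granzyme A, which was abundant in those near-empty barcodes at 3922 CPM (UMIs of the gene for every 1000000 UMIs) in FL001 and 2141 CPM in FL002, stood at 18.9 and 24.4 CPM in members, or 0.481% and 1.14% of its free level. The same share was 3.67% and 2.30% for Trbc2, 3.10% and 4.79% for Akr1c13, and 4.15% and 1.84% for H19. Of the 10 kept barcodes whose sequence occurred in both libraries, 0 were members. Xist and a Y-linked gene occurred together, which a single embryo's cell should not show, in 4 members of FL001 (5.56%) and 2 of FL002 (3.03%), against 3.50% and 2.55% of the other kept barcodes. Doublet scores placed 6 members of FL001 and 0 of FL002 among the highest 5% of their library, and 1 member of FL001 and 0 of FL002 had 5 UMIs or more of T lineage genes.

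Levels below are UMIs summed over members or over the other kept barcodes of a library, as CPM with 95% exact Poisson intervals that, like the binomial ones, cover counting error only. Folds are between such sums after 20 CPM were added to each. A gene was called when it was at least 2-fold higher, or lower, in both libraries. Of 3553 genes with enough signal, at least 50 CPM in members or others, 97 were called higher in members (2.73% of those tested) and 118 lower (3.32%), or 91 and 117 without the gate genes. Since the same transcripts chose the members, these counts describe them and test nothing. The limit on Cd3g also fixes in part that T lineage genes are low, so members were set a second time against only those other barcodes with at most 3 Cd3g UMIs. Of 3492 genes, 74 were then higher (2.12%) and 55 lower (1.58%). 70 genes were higher in both comparisons, which is 72.2% of the first list and 94.6% of the second, and 53 were lower in both, 44.9% and 96.4%. The median log2 fold of all tested genes was -0.0126 in FL001 and -0.00419 in FL002 in the first comparison, and -0.0214 and -0.0159 in the second.

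**Figure D2:**
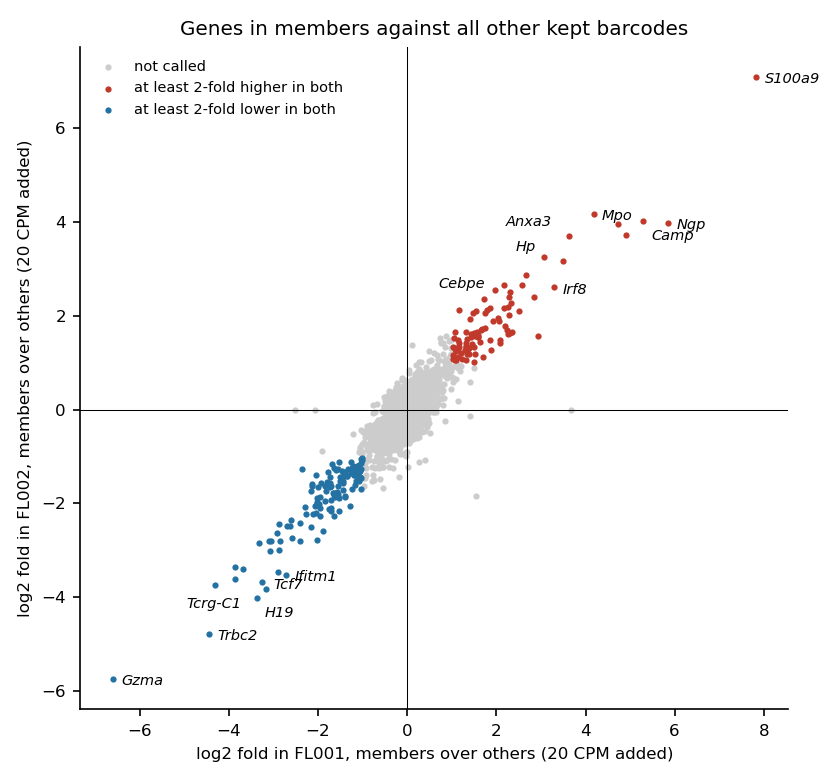
log2 fold of each tested gene, gate genes left out, in FL001 (horizontal axis) and FL002 (vertical axis), members over all other kept barcodes with 20 CPM added, red where called higher and blue where called lower. S100a9 lies alone at 7.83 and 7.09, and Gzma lies lowest at -6.61 and -5.75.

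The granule genes outside the gate were among the highest. Mpo, the gene of myeloperoxidase, the enzyme that makes hypochlorous acid in primary granules, stood at 3584 CPM (3458 to 3714) in members of FL001 and 3662 CPM (3502 to 3829) in members of FL002, against 179 and 185 CPM in the other barcodes, a log2 fold of 4.18 and 4.17. It had a UMI in 66 of 72 and 64 of 66 members, with a median of 31.5 and 26 UMIs and a range of 0 to 187 and 0 to 124, where free RNA alone would supply 3.58 and 1.96 UMIs to a barcode made up of nothing else. Of 14 primary granule and promyelocyte genes with enough signal, 8 were called higher and 1 lower, with a median log2 fold of 1.21 in FL001 and 1.29 in FL002. The others called higher were Alas1 (1.98 and 2.55), the first enzyme of haem synthesis, Igsf6 (2.17 and 2.65), the inhibitory lectin Clec12a (1.72 and 2.37), the protease inhibitor Serpinb1a (1.32 and 1.66), the granule tetraspanin Cd63 (1.39 and 1.31), the chaperone Calr (1.14 and 1.49) and Gstm1 (1.29 and 1.28). Alas1, Igsf6 and Gstm1 passed the minimum of 50 CPM only through the members. Serpinb1a and Gstm1 were not called against the barcodes with at most 3 Cd3g UMIs. In that comparison 7 of 14 were called higher, including a gene outside the 8, and 0 lower. Nkg7, which is also a gene of cytotoxic lymphocytes, was lower at 76.7 and 109 CPM against 262 and 291 CPM, a call that ended against those barcodes.

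Of the 22 genes of secondary and tertiary granules and mature neutrophils, 10 had enough signal, and all 10 were called higher. Each passed the minimum of 50 CPM only through the members, so the filter favoured that call and the count tests nothing. Few barcodes carried them. S100a9, the partner subunit of S100a8 in calprotectin, stood at 5114 and 2952 CPM in members against 2.59 and 1.78 CPM, and was found in 21 and 14 members. Camp, the gene of cathelicidin, stood at 776 and 305 CPM and Ngp, neutrophilic granule protein, at 1144 and 297 CPM, both under 1 CPM in the others. Ngp was found in 8 members of FL001 and 5 of FL002, and 1 barcode held 46.2% of its UMIs in FL001 and 74.1% in FL002. Hp, the gene of haptoglobin, which binds free haemoglobin, was spread more widely, at 151 and 179 CPM with a UMI in 35 and 36 members. The remaining 12 of the 22 listed genes had too little signal. Among them Ly6g, the surface marker of mature mouse neutrophils, stood at 5.90 and 3.76 CPM, the chemokine receptor Cxcr2 at 3.54 and 3.76 CPM, and Retnlg and Cd177, genes of late neutrophils, at 0 UMIs in both libraries.

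Of 7 monocyte and macrophage genes with enough signal, 4 were higher, and all 4 passed the minimum of 50 CPM only through the members, so the filter favoured that call. Irf8 stood at 339 and 211 CPM against 16.7 and 17.8 CPM (3.29 and 2.61), F13a1, the A subunit of coagulation factor XIII, at 86.1 and 86.5 CPM against 1.26 and 1.88 CPM, Ms4a6c at 113 and 105 CPM against 7.85 and 7.56 CPM, and Csf1r at 54.3 and 32.0 CPM, with log2 folds of 1.70 and 1.11. Csf1r was not called against the barcodes with at most 3 Cd3g UMIs. The macrophage genes C1qa, C1qb and C1qc were at 0 UMIs in members of both libraries, and Adgre1, which encodes F4/80, stood at 9.44 and 3.76 CPM.

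Among 8 myeloid transcription factors with enough signal, 3 were higher and 0 lower, of which Cebpe and Zeb2 passed the minimum of 50 CPM only through the members. Cebpe, the C/EBP factor needed for secondary granules, stood at 81.4 and 97.8 CPM against 0.631 and 0.674 CPM (2.30 and 2.51). Spi1, which encodes PU.1, stood at 232 and 353 CPM against 60.7 and 96.0 CPM (1.64 and 1.69). Zeb2 stood at 106 and 105 CPM against 30.4 and 28.7 CPM, and was not called against the barcodes with at most 3 Cd3g UMIs. Cebpa, the factor at the head of the granulocyte and monocyte programme, fell short of the level needed at 34.2 and 30.1 CPM, against 1.54 and 1.93 CPM in the others. Of 5 cytokine and Fc receptors and adaptors, 4 were higher, namely the signalling adaptor Tyrobp (497 and 526 CPM against 163 and 197 CPM), the inhibitory receptor Sirpa (1.38 and 1.18), the Fc receptor Fcgr3 (1.17 and 2.13) and Csf3r, the receptor for granulocyte colony-stimulating factor (1.06 and 1.66). Sirpa, Fcgr3 and Csf3r passed the minimum only through the members. Against the barcodes with at most 3 Cd3g UMIs, Sirpa and Csf3r were not called and 2 of the 5 remained. Of the 6 subunits of the NADPH oxidase, which makes superoxide in phagocytes, Cybb (2.07 and 1.89) and Ncf4 (2.05 and 1.95) were higher, both admitted by their level in the members alone, while Rac2 stood at 656 and 709 CPM against 657 and 576 CPM.

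The higher genes with the largest folds also held Anxa3 (262 and 306 CPM, log2 fold 3.62 and 3.70) and Anxa1 (472 and 327 CPM, 3.50 and 3.16), which encode annexins, Mt1 (296 and 325 CPM, 2.66 and 2.87), a metallothionein that binds zinc, the chemokine gene Ccl9 (204 and 135 CPM, 2.85 and 2.40) and Clec5a, a myeloid lectin (83.8 and 95.9 CPM, 2.29 and 2.40). Anxa1 is 1 of the 10 genes of the mature neutrophil list described above. Hspa1a, a heat shock protein gene, was at 129 and 588 CPM in members and differed as much between the libraries in the other barcodes, at 5.11 and 76.4 CPM. Gm5483 and BC100530 belong to the stefin A cluster of near-identical genes, so their counts of 514 and 593 CPM in FL001 and 293 and 246 CPM in FL002 are uncertain between copies.

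Of the 12 T lineage genes 8, and of the 10 Notch receptors and targets 6, had enough signal. Each of these was called lower. Each also passed the minimum of 50 CPM only through the other barcodes, so the filter favoured that call and the counts test nothing. Summed over the whole lists, T lineage genes stood at 61.3 and 24.4 CPM in members against 1134 and 1062 CPM, and Notch genes at 67.2 and 58.3 CPM against 794 and 809 CPM. Tcf7, the first T lineage factor induced by Notch, stood at 5.90 and 1.88 CPM against 214 and 291 CPM, Nrarp, a direct Notch target, at 4.72 and 9.40 CPM against 168 and 163 CPM, Hes1 at 0 and 5.64 CPM against 85.1 and 118 CPM, and the receptor gene Notch1 itself at 40.1 and 30.1 CPM against 144 and 145 CPM. Against the barcodes with at most 3 Cd3g UMIs, 3 T lineage genes and 5 Notch genes had enough signal, and Notch1 was the 1 of them not called lower. There Tcf7 was still at 116 and 172 CPM in the comparator. The other leading lower genes were Gzma (3772 and 2368 CPM in the others), Trbc2, Trbc1 and the gamma chain constant genes Tcrg-C1, Tcrg-C2 and Tcrg-C4, whose reads can be shared between copies, the imprinted RNA H19, Akr1c13, Crip1, Il2ra, Lck, 2300002M23Rik, Mpzl2 and Cd3d. The last 3 of these had too little signal in the barcodes with at most 3 Cd3g UMIs for a call there.

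Stem and progenitor genes did not follow the T lineage genes. Cd34, a sialomucin of progenitors, stood at 244 and 265 CPM against 84.3 and 80.7 CPM, and Lmo2 at 175 and 169 CPM against 57.0 and 63.4 CPM, the 2 of 6 genes called higher, and 0 of 7 were called against the barcodes with at most 3 Cd3g UMIs. Kit stood at 42.5 and 60.2 CPM against 61.3 and 59.5 CPM. Of 11 mitosis and replication genes 0 were called in either direction, with Mki67 at 109 and 99.6 CPM against 86.0 and 92.2 CPM. Of 5 integrins and adhesion receptors 0 were called, and Itga4, a subunit of the receptor for VCAM-1, stood at 94.4 and 56.4 CPM against 131 and 128 CPM.

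Markers of other blood lineages were checked as whole lists. Eosinophil, basophil and mast cell genes summed to 114 and 84.6 CPM in members against 117 and 122 CPM, with 1 of 12 having enough signal, Cpa3, and 6 of 12 at 0 UMIs in FL001 and 7 in FL002. Epx, Prg3 and Tpsab1 were at 0 in both. Cpa3 made up most of the sum in the others, at 93.2 and 99.1 CPM against 34.2 and 48.9 CPM in members. Hdc went the other way, at 44.8 and 7.52 CPM in members against 1.54 and 1.59 CPM, though it fell short of 50 CPM. It had a UMI in 17 members of FL001 and 3 of FL002. Dendritic cell genes summed to 56.6 and 92.1 CPM against 128 and 251 CPM, most of it Bst2, with Xcr1, Zbtb46 and H2-Aa at 0. B lineage genes summed to 191 and 109 CPM against 107 and 103 CPM, most of it Ighm in FL001, with Pax5 and Cd79a at 0. Innate lymphoid and NK genes summed to 101 and 50.8 CPM against 195 and 175 CPM, most of it Id2, with Il22 at 0. Erythroid and megakaryocyte genes summed to 512 CPM in FL001 and 11.3 CPM in FL002 against 273 and 101 CPM. Of the 512 CPM, Pf4, the gene of platelet factor 4, made 420 CPM, and 1 barcode held 355 of its 356 UMIs. That barcode also carried 40 UMIs of Ppbp, another platelet gene, and was a member through 17 UMIs of Lyz2 alone. Without it the calls numbered 97 higher and 121 lower.

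**Figure D3:**
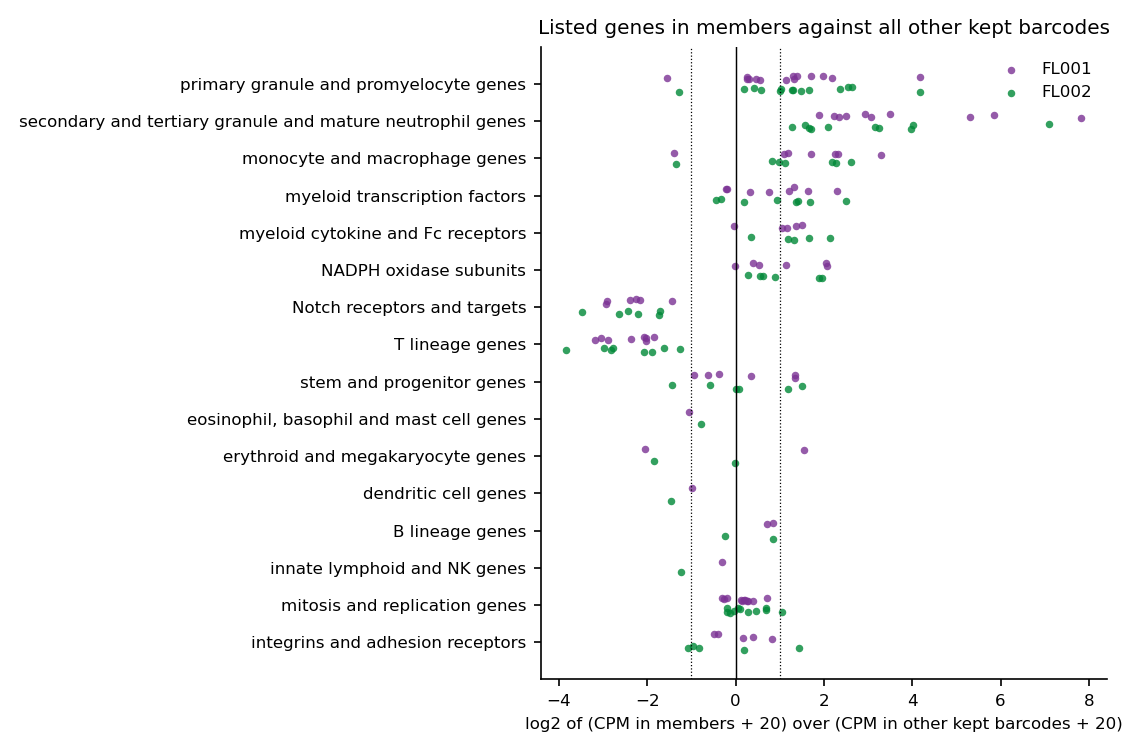
log2 fold of every gene with enough signal in each of the 16 gene lists (rows), members over all other kept barcodes with 20 CPM added, in purple for FL001 and green for FL002, with dotted lines at 2-fold. The 10 plotted secondary and tertiary granule genes lie right of the upper line in both libraries. The 8 T lineage and 6 Notch genes lie left of the lower one. The filter on signal favoured these directions.

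Within the members, 3 pairs of genes were used to describe maturity and branch, at 3 UMIs or more for the pair. Elane and Mpo marked immature granulocytic expression, S100a8 and Ngp mature granulocytic expression, and Csf1r and Irf8 monocytic expression. The Elane and Mpo pair passed in 65 of 72 members of FL001 (90.3%, 81.0 to 96.0) and 61 of 66 of FL002 (92.4%, 83.2 to 97.5). The S100a8 and Ngp pair passed in 18 members of FL001 (25.0%, 15.5 to 36.6) and 14 of FL002 (21.2%, 12.1 to 33.0). The Csf1r and Irf8 pair passed in 33 members of FL001 (45.8%, 34.0 to 58.0) and 20 of FL002 (30.3%, 19.6 to 42.9). The intervals of the libraries overlapped for each pair. S100a8 and Ngp passed together with Csf1r and Irf8 in 3 members of FL001 and 1 of FL002.

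The same pairs were counted in the other kept barcodes. S100a8 and Ngp passed in 0 of the 785 barcodes of FL001 and 0 of the 1941 of FL002 that had at most 3 Cd3g UMIs, with exact binomial upper limits of 0.469% and 0.190%, a result that the gate itself forces for large S100a8 counts. Elane and Mpo passed in 34.9% and 20.8% of those barcodes, and in 3.87% and 1.62% of the barcodes with more than 3 Cd3g UMIs, whose median depths were 7719 and 4352 UMIs. Csf1r and Irf8 passed in 2.29% and 2.01% of the former and 0.322% and 0.191% of the latter. When every barcode was thinned to 1500 UMIs, with none left out, Elane and Mpo passed in 47 members of FL001 and 46 of FL002, S100a8 and Ngp in 16 and 12, and Csf1r and Irf8 in 5 and 0. The monocytic share therefore depended on depth far more than the mature one, and its difference between the libraries could not be read apart from their difference in depth.

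Each member was then placed in 1 group. The S100a8/Ngp group held the 18 and 14 members above, the Csf1r/Irf8 group the 30 and 19 others with that pair, and the Elane/Mpo group the 23 and 31 with that pair alone. The 3 remaining members were the barcode with Pf4 and 2 barcodes of FL002 that entered through 38 and 18 UMIs of Lyz2, each with 1 UMI of Mpo and 1 of Irf8. The S100a8/Ngp group was the shallowest, at a median of 8620.5 and 5953 UMIs against 13384 and 8979 in the Csf1r/Irf8 group and 11180 and 7911 in the Elane/Mpo group.

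The Elane/Mpo group was for the most part an Mpo group. Mpo ran from 3 to 187 UMIs with a median of 21 in FL001 and from 7 to 124 with a median of 26 in FL002, while Elane was at 0 in 15 of 23 and 17 of 31 of its members. Summed, Mpo stood at 3629 and 3885 CPM and Elane at 565 and 929 CPM. Cd34 stood at 305 and 302 CPM and Hmga2, a chromatin protein gene of fetal stem cells, at 426 and 405 CPM, and Cebpe at 44.0 and 51.6 CPM. Camp, Ngp, Ltf, Lcn2 and Fcnb were at 0 UMIs in this group in both libraries. Mcpt8, of the eosinophil, basophil and mast cell list, had 13 UMIs in this group in FL001 and 0 in FL002. In FL001, 5 of the 23 members of this group were among the highest 5% of doublet scores, against 0 of the 31 in FL002.

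The Csf1r/Irf8 group held Mpo and Prtn3 with little Elane. Prtn3 stood at 1566 and 1637 CPM against 1725 and 2324 CPM in the Elane/Mpo group. Mpo stood at 2570 and 2577 CPM and was found in all 49 of its members, while Elane, at 0 UMIs in 24 of 30 and 17 of 19 members, stood at 63.2 and 50.1 CPM, and Ctsg at 407 and 301 CPM against 1061 and 1073 CPM in the Elane/Mpo group. Irf8, which helped choose the group, had a median of 7.5 UMIs and a range of 3 to 20 in FL001. In FL002 its median was 4 and its range 2 to 17. Irf8 was found in all 49 members, but Csf1r in only 18 of 30 and 8 of 19. The group therefore passed for the most part on Irf8. Of the genes the choice did not use, Ccr2, the receptor that takes monocytes out of the marrow, stood at 110 and 77.9 CPM against 14.7 and 11.9 CPM in the Elane/Mpo group, Ctss, the gene of cathepsin S, at 60.9 and 50.1 CPM against 7.34 and 0 CPM, Psap, prosaposin, at 367 and 284 CPM against 114 and 71.5 CPM, and Ms4a6c at 201 and 223 CPM against 7.34 and 27.8 CPM. Cebpe stood at 2.34 and 11.1 CPM. Cd34 at 276 and 267 CPM and Hmga2 at 538 and 417 CPM were near their levels in the Elane/Mpo group.

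Setting all 33 and 20 members with the Csf1r and Irf8 pair against the other members, 18 of 3715 genes were at least 2-fold higher in both libraries (0.485%) and 38 lower (1.02%). The largest folds were those of Id3, an inhibitor of helix-loop-helix factors, at 122 and 146 CPM against 10.3 and 11.8 CPM, Ms4a6c, Mnda, Tifab, Ctsc, Ifi202b, Cd69 and Ighm. Ctsc encodes cathepsin C, the protease that activates the granule serine proteases, and stood at 203 and 354 CPM against 61.6 and 124 CPM. Ighm, the immunoglobulin mu chain gene, stood at 220 and 93.7 CPM against 30.8 and 26.5 CPM and was found in 26 and 9 of these members. Of the 7 monocyte genes with enough signal 4 were higher, Ctss, Psap, Ccr2 and Ms4a6c, and 0 lower, of which Psap alone also reached the minimum of 50 CPM in the other members. Camp, Ngp, Gm5483, BC100530, S100a9, Pglyrp1, Anxa1 and Cd63 were lower with the largest folds, which follows in part from the S100a8/Ngp members being among those left for comparison.

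The S100a8/Ngp group carried the highest levels of both granule programmes when its members were summed. Elane stood at 4563 and 3748 CPM, Mpo at 6697 and 5914 CPM, Prtn3 at 4655 and 4790 CPM, Camp at 4634 and 1897 CPM, Ltf, the gene of lactoferrin, at 838 and 269 CPM, Lcn2, lipocalin 2, at 444 and 281 CPM, and Cebpe at 394 and 433 CPM. Cd34 stood at 42.3 and 70.3 CPM and Hmga2 at 21.1 and 46.8 CPM, below the other groups in both libraries. Mitosis and replication genes went both ways. Top2a stood at 268 and 223 CPM against 301 and 441 CPM in the Elane/Mpo group. Rrm2 stood at 268 and 211 CPM against 121 and 155 CPM there, and Mki67 at 84.5 and 176 CPM against 80.7 and 107 CPM.

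The members with this pair and no UMI of Csf1r or Irf8, 13 in FL001 and 11 in FL002, were set against the other members. Of 3918 genes, 143 were at least 2-fold higher in both libraries (3.65%) and 154 lower (3.93%). The largest folds upward were those of Camp, Gm5483, BC100530, S100a9, Pglyrp1, Lcn2, Ltf and Stfa3, and Pglyrp1, a peptidoglycan-binding granule protein, stood at 897 and 541 CPM against 3.98 and 6.40 CPM. Of 14 primary granule genes 10 were higher and 1, Ctsc, lower, and of 13 secondary and tertiary granule genes 11 were higher. Of these, 2 of the 10 and 8 of the 11 passed the minimum of 50 CPM only through this subset. S100a8 and Ngp had chosen the subset, so the choice and the filter favoured the second count, which tests nothing. Cebpe, at 523 and 557 CPM against 26.5 and 36.2 CPM, and Gfi1, a repressor needed for neutrophils, were the 2 transcription factors called higher of 9, both admitted by their level in the subset alone. Cd34, Ccl3, Cd48, Ms4a6c, Sox4, Ccnd1, Hmga2 and Ifitm3 were lower with the largest folds. Sox4 and Ccnd1, the gene of cyclin D1, were at 0 UMIs in these members of both libraries and at 141 and 117 CPM, and 114 and 100.2 CPM, in the other members. Of 11 mitosis and replication genes 0 were called in either direction. Cd3d was the 1 T lineage gene with enough signal and was higher, on 5 and 2 UMIs.

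**Figure D4:**
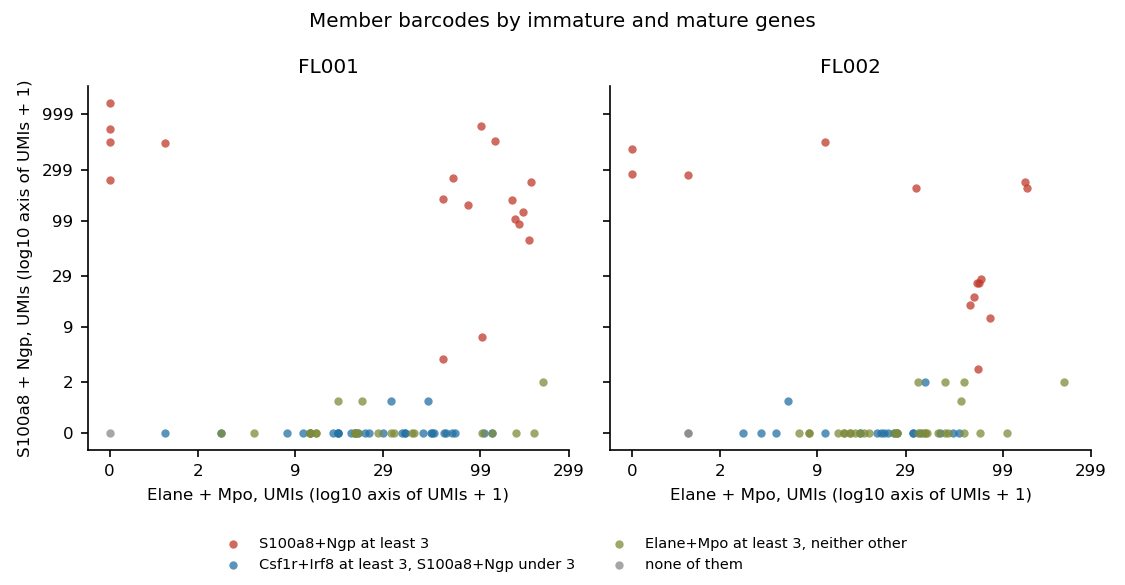
UMIs of Elane and Mpo (horizontal axis) and of S100a8 and Ngp (vertical axis) in each member of FL001 and FL002, on log10 axes of UMIs + 1, coloured by group. In both libraries red points lie in the upper left, with Elane and Mpo near 0 and S100a8 and Ngp above 100, and again on the right with Elane and Mpo high.

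The sum over the S100a8/Ngp group hid unlike barcodes, which a split by Camp showed in part. The limit of 20 Camp UMIs was set after the values were seen, and the split has no test. In FL001, 5 members reached it, with 170, 158, 133, 101 and 74 Camp UMIs. Their Elane counts were 0, 0, 1, 0 and 2 UMIs in that order, and Mpo was at 0 in 4 of them and at 68 UMIs in the one with the fewest Camp UMIs. In FL002, 4 members reached it, with 70, 31, 29 and 24 Camp UMIs. Their Elane counts were 0, 0, 1 and 0 UMIs and their Mpo counts 0, 1, 9 and 0 UMIs. These 9 members thus held almost no elastase transcripts while S100a8 ran from 175 to 837 UMIs, S100a9 from 192 to 716 UMIs and Lyz2, the gene of lysozyme, from 24 to 92 UMIs.

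The other 23 members of the group had at most 10 Camp UMIs and at most 10 Ngp UMIs. Elane had a median of 48 UMIs in the 13 of FL001, with a range of 0 to 99, and of 34.5 UMIs in the 10 of FL002, with a range of 5 to 62, and was at 0 in 1 of the 23. Mpo had a median of 62 and 49 UMIs, Prtn3 of 53 and 36 UMIs, and Lyz2 of 9 and 2.5 UMIs. S100a8 spanned 4 to 774 UMIs in FL001 and 3 to 230 UMIs in FL002, so it overlapped the Camp members in FL001 and lay below all of them in FL002. The barcode with 774 S100a8 UMIs, which held 48 of Elane and 52 of Mpo, was among the highest 5% of doublet scores in FL001. The next highest of the 13 had 560 S100a8 UMIs. Cebpe had a UMI in all 9 Camp members and in 21 of the 23 others. The Camp members were shallow barcodes, with a median of 4684 UMIs in FL001 and 3184.5 in FL002 against 10174 and 6559. Irf8 was at 0 in all 9 Camp members and had a UMI in 5 of the 23. The 1 of the 23 without Elane was a barcode of 1886 UMIs, with 0 UMIs of Mpo and Prtn3, 10 of Camp and 10 of Ngp. The Camp member with 68 Mpo UMIs had 33 of Prtn3. The limit on raw Camp UMIs therefore did not part the members cleanly.

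**Figure D5:**
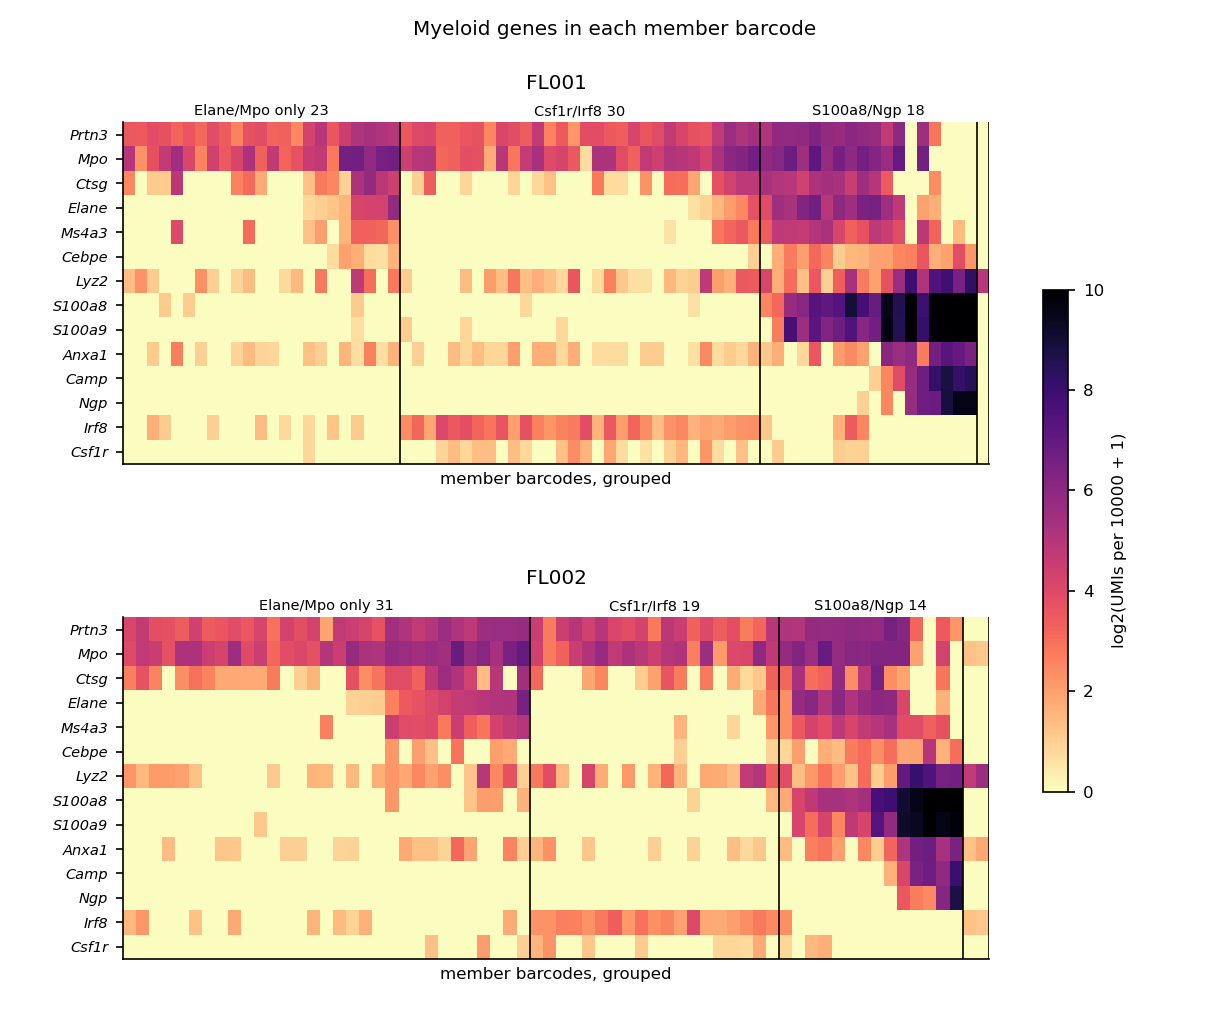
Levels of 14 myeloid genes (rows), as log2 of UMIs per 10000 UMIs of the barcode with 1 added, in each member (columns) of FL001 and FL002, grouped as in the text and ordered within groups by Elane or, in the S100a8/Ngp group, by Camp and Ngp. Elane, Ctsg and Ms4a3 rise together at the right of the Elane/Mpo group, and at the right of the S100a8/Ngp group they fade where Camp and Ngp appear.

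The promoters of Elane and Mpo, whose medians were 41 and 54 UMIs in the 23 members and 0 in the 9, and of Ngp and Camp, whose medians were 0 in the 23 and 75 and 74 UMIs in the 9, are printed so that the sequences before these start sites can be compared. Each line gives the 250 bases before the gene's start, 5′ to 3′ in the direction of transcription, from RefSeq on GRCm38.p6, whose coordinates are those of that build. Capitals mark matches on either strand to GAGGAA, a core bound by PU.1 and other Ets factors, or to TTNNGNAA, a C/EBP type sequence.
Elane (chr10:79886062-79886311, plus strand): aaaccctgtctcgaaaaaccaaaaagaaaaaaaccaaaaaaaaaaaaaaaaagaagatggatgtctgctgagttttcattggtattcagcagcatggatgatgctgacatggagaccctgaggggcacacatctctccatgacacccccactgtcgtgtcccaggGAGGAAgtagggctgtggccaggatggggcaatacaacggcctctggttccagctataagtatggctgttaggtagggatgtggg
Mpo (chr11:87793534-87793783, plus strand): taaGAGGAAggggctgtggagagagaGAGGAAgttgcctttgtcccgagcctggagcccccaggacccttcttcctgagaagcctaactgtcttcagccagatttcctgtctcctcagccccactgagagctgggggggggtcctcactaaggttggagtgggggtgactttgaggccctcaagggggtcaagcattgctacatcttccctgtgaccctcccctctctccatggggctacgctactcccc
Ngp (chr9:110419558-110419807, plus strand): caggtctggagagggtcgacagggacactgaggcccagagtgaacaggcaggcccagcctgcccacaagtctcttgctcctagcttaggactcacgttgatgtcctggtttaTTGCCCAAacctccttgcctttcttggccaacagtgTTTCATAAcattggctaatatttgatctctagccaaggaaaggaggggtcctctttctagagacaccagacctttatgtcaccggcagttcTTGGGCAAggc
Camp (chr9:109849457-109849706, minus strand): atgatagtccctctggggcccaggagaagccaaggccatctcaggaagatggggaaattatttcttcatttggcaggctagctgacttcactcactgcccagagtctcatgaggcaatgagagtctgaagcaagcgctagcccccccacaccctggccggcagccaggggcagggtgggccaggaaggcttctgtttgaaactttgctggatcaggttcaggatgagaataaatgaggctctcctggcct
GAGGAA had 1 match before Elane, from 85 to 80 bases upstream of the start, 2 before Mpo and 0 before Ngp and Camp. TTNNGNAA had 3 matches before Ngp, from 138 to 131, 102 to 95 and 11 to 4 bases upstream, and 0 before the other 3. No matches overlapped. Of 32851 mouse promoters of the same length, 23.3% held GAGGAA and 36.8% held TTNNGNAA, so a match in any 1 promoter is common, and these letters say nothing of binding.

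Between the libraries, the members of FL001 and FL002 were alike in most genes. Of 3210 genes with at least 50 CPM in members of either library, 12 were at least 2-fold higher in FL001 (0.374%) and 14 in FL002 (0.436%). Several of those higher in FL001 rested on few barcodes. Pf4 and Gng11 were carried by the barcode described above, and without each gene's highest barcode 9 of the 12 remained. Ngp at 1144 against 297 CPM, Ltf at 140 against 43.2 CPM and Camp at 776 against 305 CPM are the genes of the 5 and 4 members with 20 Camp UMIs or more, and Stfa1, at 241 CPM against 0 UMIs, and BC100530 are stefin A copies found in the S100a8/Ngp group. Gm9844, the remaining one of the 8 with the largest ratio, stood at 69.6 against 18.8 CPM.

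Of the 14 genes higher in FL002, 7 were also at least 2-fold higher in the other barcodes of FL002, while 0 of the 12 higher in FL001 were so in the others of FL001. The share of all tested genes that differed so in the other barcodes is not given here. These counts are therefore no result about the members. Scand1 stood at 167 against 8.26 CPM in members and 186 against 10.2 CPM in the others, and Tgfb1 at 115 against 14.2 CPM and 157 against 13.7 CPM. Hspa1a, Kcnk12, Hist1h2ap, Jun and Dapk3 were the further ones among the 8 with the largest ratio. Xist, the RNA that silences an X chromosome in female cells, was also among the 14, at 609 against 256 CPM in members with a UMI in 43 of 66 and 28 of 72, and stood at 879 against 623 CPM in the others. Cebpb, a C/EBP factor of activated and emergency myelopoiesis, stood at 209 CPM (172 to 251) in members of FL002, with a UMI in 52 of 66, against 43.7 CPM (30.7 to 60.2) in FL001, with a UMI in 23 of 72, and at 65.3 against 17.6 CPM in the others. Which property of the libraries goes with these differences was not tested.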

How the data were processed

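According to the labels and the study's methods, the libraries were made with 10X Chromium, sequenced from the 3′ end on an Illumina NextSeq and turned into gene by barcode matrices with CellRanger. Its version and annotation are not given in the sources used here, and the processing notes name the build mm9. The authors deposited raw UMI counts for 28692 genes and all barcodes, with no normalization and no choice of cells.

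The 6 gate genes, the thresholds and the 16 gene lists were chosen with earlier results of these data known. Of 200 listed genes, 2 were absent from the files. With 2 libraries of 1 label group and members chosen from the same counts, no test was run and no replicate error could be given. Nothing states that the libraries are separate cultures. UMIs were summed per library and scaled to 1000000, with 95% exact Poisson and Clopper-Pearson intervals. Calls needed 2-fold with 20 CPM added in both libraries and 50 CPM in either group of either library. Named genes were the listed genes, the 15 with the largest fold each way between members and others (the smaller of the library folds, gate genes left out), the 8 each way for both subsets of members, and the 8 with the largest ratio each way between libraries. Doublets were scored with Scrublet in scanpy 1.11.5 at an expected rate of 0.06. It marked 7 and 1 barcodes, under 0.5% of either library, so none were removed and the 5% with the highest scores were left out as an alternative. The call rule was tried on simulated data, of which no outcome is given here. Python 3.11.15, numpy 2.4.6 and scipy 1.17.1 were used. Promoter sequences are RefSeq's on GRCm38.p6. No gene coordinates from that build were joined to the counts. Values of a few listed genes are not reported here.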

Additional observations from a re-analysis of the deposited data

Results flagged for a closer look

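The barcodes that passed the gate sum but not the limit on Cd3g were not members. They were counted among the other kept barcodes and not described above. FL001 held 1 such barcode, with 14 UMIs of the gate genes, 13 of them Prtn3, and 4 of Cd3g. FL002 held 3, with gate sums of 82, 62 and 10 UMIs and 15, 10 and 38 UMIs of Cd3g. The first 2 of these carried 17 and 18 UMIs of Elane and 2 and 1 of Tcf7. They stand out because granule transcripts occur there beside a T cell transcript, in barcodes of 8639 to 15896 UMIs. Their doublet scores lay at the 99.4th percentile of FL001 and at the 95.1, 98.2 and 97.4th percentiles of FL002. Whether each is a doublet was not tested.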

How the results depend on the processing

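No paired analysis was possible because the 2 libraries form 1 group and no result comes from a test. The share of members among kept barcodes, 2.34% over both libraries, was 5.37% with a gate sum of 5, 1.55% at 20, 1.22% at 30, 1.46% with a sum of 0.2% of the UMIs, 1.21% without Prtn3 and 1.61 to 4.03% with either library left out. Among members, the share with S100a8 and Ngp, 23.2%, was 10.1%, 35.2%, 44.4% and 37.2% under the same first 4 settings and 31.9% at 1 UMI. The share with Csf1r and Irf8, 38.4%, was 25.9% with a gate sum of 5, 29.1% at 0.2% of UMIs, 57.2% at 1 UMI, 25.4% at 5 UMIs and 3.62% after thinning to 1500 UMIs, where the share with Elane and Mpo, 91.3%, was 67.4%. At 3-fold, 43 genes were higher and 60 lower in members, and against barcodes with at most 3 Cd3g UMIs 55 were lower. Between the libraries, adding 5 CPM in place of 20 gave 30 genes higher in FL001 and 22 in FL002, and no filter on low levels gave 23 in FL001. In 79 of the 103 combinations of result and alternative the value stayed within its counting interval or within 1.5 times the main count. The 15 higher and 15 lower genes with the largest folds were called under all 12 alternatives compared, except that 14 of the higher ones were called at a gate sum of 5 and 12 of the lower ones against the barcodes with at most 3 Cd3g UMIs. These genes had been picked for the largest folds in the same counts, so their being called again was largely fixed in advance. The alternatives with a gate sum of 30, without Prtn3, against low-Cd3g barcodes and without the Pf4 barcode were among those added after the data were seen. Genes under 50 CPM, such as Cebpa and Ly6g, were too shallow to call in 138 barcodes.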
